A study of Mus musculus with 4 samples.

Results

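The metalloproteinases of the matrixin (Mmp), Adam and Adamts families and the tissue inhibitors of metalloproteinases (Timp) were examined in 4 mouse fibroblast lines. Members were all probe sets that the platform annotation gives to 1 gene whose symbol is Mmp, Adam, Adamts or Timp followed by a number and at most 1 letter. The rule found 116 of the 45037 non-control probe sets of the array, for 65 genes. They were 29 probe sets of 18 Mmp genes, 46 of 28 Adam genes, 28 of 15 Adamts genes and 13 of 4 Timp genes.

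All 4 lines were LMTK- cells, mouse L cell fibroblasts without thymidine kinase, stably transfected with the expression vector pCI-neo, in which a cytomegalovirus promoter drives the insert. Vector 1 and vector 2 carried the empty vector, and the clones MTf 4 and MTf 6 carried it with the cDNA of mouse melanotransferrin, a membrane-anchored relative of transferrin that binds iron. Total RNA of each line was hybridised to 1 Affymetrix Mouse Genome 430 2.0 Array, and the comparison asks which transcripts differ with overexpressed melanotransferrin. Each clone is a single line and so a single integration history, whether vector 1 and vector 2 were clones is not stated, and the p-values rest on the spread of these 4 lines alone.

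Matrixins are secreted or membrane-bound zinc proteases that are made as inactive precursors and cut collagens, gelatins and other matrix proteins. Adam proteins are membrane proteins, some of which shed the outer parts of other membrane proteins, while Adamts proteins are secreted and act on proteoglycans, procollagens and other matrix proteins. Timp proteins bind the active site of these proteases. In fibroblasts the best known circuit runs from Mmp14, a membrane-type matrixin, through Timp2, which holds the Mmp2 precursor on Mmp14, to active Mmp2, a gelatinase.

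The 300-base promoter windows of 4 members are shown because these genes mark the contrast in the data. Mmp14 and Timp2 were far above background in every line and were both highest in vector 2 and MTf 4. In contrast, Mmp3 (stromelysin 1) and Mmp13 (collagenase 3) were below the detection floor, defined below, in every line. Each window runs from 250 bases before to 50 bases after the gene start of RefSeq on GRCm38.p6, 5′ to 3′ on the gene's strand. Capitals mark the GC box GGGCGG, the AP-1 motif TGAGTCA and the TATA motif TATAAA, each searched on both strands. None of these 3 motifs overlaps another kind in the windows shown, and the capitals of Mmp14 hold 2 adjoining GC boxes.
Mmp14, chr14:54431348-54431647, plus strand: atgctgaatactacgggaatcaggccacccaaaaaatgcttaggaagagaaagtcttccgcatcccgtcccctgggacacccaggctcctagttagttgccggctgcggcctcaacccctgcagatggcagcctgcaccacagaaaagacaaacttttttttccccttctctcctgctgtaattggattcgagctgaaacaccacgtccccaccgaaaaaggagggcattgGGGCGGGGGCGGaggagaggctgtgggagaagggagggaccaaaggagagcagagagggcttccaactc
Timp2, chr11:118355362-118355661, minus strand: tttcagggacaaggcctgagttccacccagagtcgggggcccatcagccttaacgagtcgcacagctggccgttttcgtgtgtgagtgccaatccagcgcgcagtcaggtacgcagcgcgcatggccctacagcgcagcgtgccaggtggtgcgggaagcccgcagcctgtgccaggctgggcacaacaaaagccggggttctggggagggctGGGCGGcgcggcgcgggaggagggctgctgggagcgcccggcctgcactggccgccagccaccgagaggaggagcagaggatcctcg
Mmp3, chr9:7445572-7445871, plus strand: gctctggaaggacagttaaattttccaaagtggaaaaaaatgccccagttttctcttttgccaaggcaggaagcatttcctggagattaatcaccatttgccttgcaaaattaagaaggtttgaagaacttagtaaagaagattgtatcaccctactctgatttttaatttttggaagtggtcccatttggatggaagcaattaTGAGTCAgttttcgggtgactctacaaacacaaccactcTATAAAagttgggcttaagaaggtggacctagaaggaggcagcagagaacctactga
Mmp13, chr9:7272264-7272563, plus strand: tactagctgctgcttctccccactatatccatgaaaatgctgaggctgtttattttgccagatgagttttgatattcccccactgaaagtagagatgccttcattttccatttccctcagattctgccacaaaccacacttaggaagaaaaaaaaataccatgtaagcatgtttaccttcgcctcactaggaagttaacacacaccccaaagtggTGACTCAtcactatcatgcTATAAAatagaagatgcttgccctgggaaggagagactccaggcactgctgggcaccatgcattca

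The deposited values are scaled array signals on a linear scale. All 4 arrays had the same 2%-trimmed mean of 1000.01, and their medians lay between 208.7 and 214.4. Detection calls were not used, so a floor was taken from genes that fibroblasts are not known to express. On each array it was the 95th percentile of 81 probe sets of olfactory, vomeronasal and trace amine receptors. The floors were 292.5 (vector 1), 229.5 (vector 2), 232 (MTf 4) and 209 (MTf 6). Meltf, the gene of the insert, gave 265 in vector 1 and 274 in vector 2, against 1519 in MTf 4 and 1885 in MTf 6, as the labels have it, and vector 1 was below its floor. Of 10 fibroblast markers 8 were above the floor in every line, among them Col1a1, Col1a2, Pdgfra, Pdgfrb and Vim, but Thy1 and Dcn were not. Of the other markers 2 of 7 macrophage and leukocyte (Csf1r and Lyz2), 1 of 6 epithelial (Krt8), 0 of 5 endothelial, 2 of 4 muscle and 2 of 4 adipocyte genes were above it.

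A minority of the family was above the floor. In bulk RNA, fewer cells with a transcript and less of it per cell cannot be told apart. In all 4 lines this held for 28 of the 116 probe sets, or 24.1%, against 40.8% of all non-control probe sets. It held for 1 of the 81 receptor probe sets, but the floor was set from these same probe sets. Their count was thus bound to be low and is no check of the floor. The 28 member probe sets represent 15 of the 65 genes. The matrixins among them were Mmp2, Mmp11, Mmp14 and Mmp23, and the inhibitors were Timp1 and Timp2. The Adam genes were the sheddases Adam10 and Adam17, the widely expressed proteases Adam9, Adam15 and Adam19, the catalytically inactive Adam22 and the testis gene Adam4, and the Adamts genes were Adamts10 and Adamts16. Another 21 probe sets were above the floor in 1 to 3 lines, and 67 in no line.

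**Figure D1:**
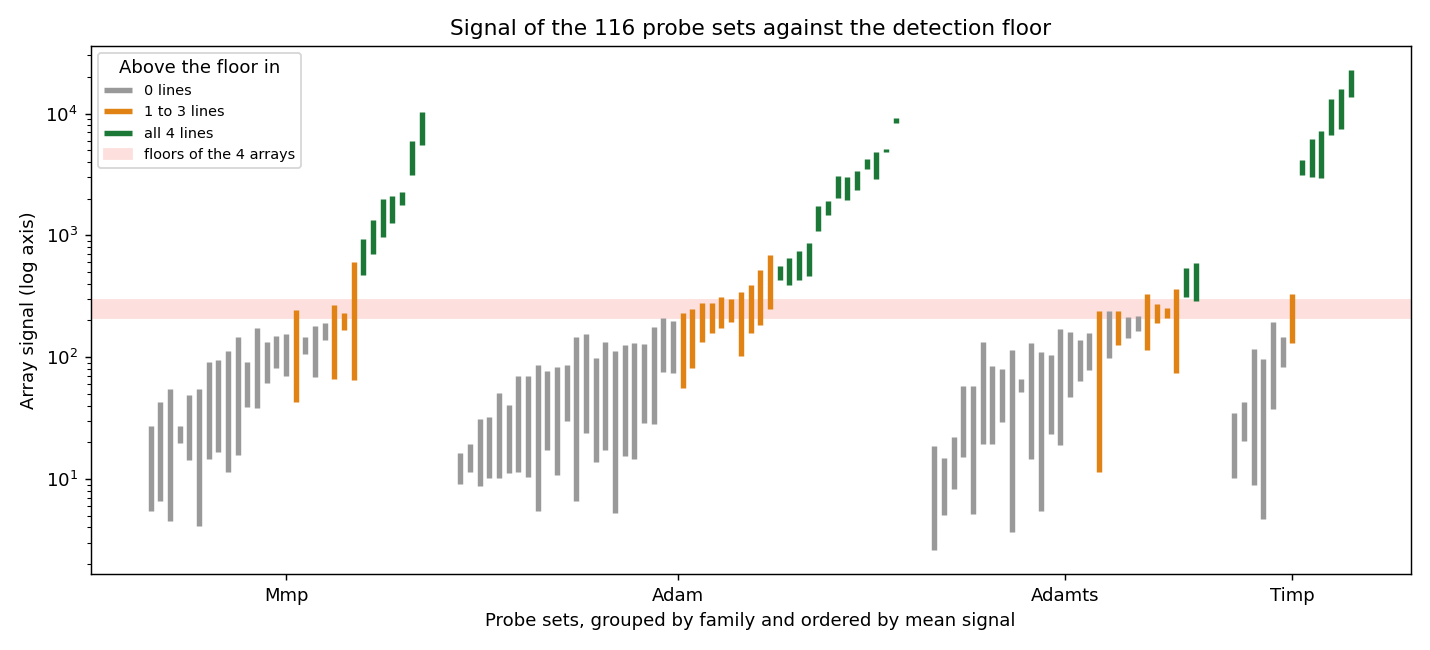
Each vertical bar is 1 of the 116 probe sets and reaches from its lowest to its highest signal over the 4 lines, on a log axis, within its family and in order of mean signal. The shaded band spans the floors of the 4 arrays (209 to 292.5); 28 probe sets lay above the floor in all 4 lines, 21 in 1 to 3 lines and 67 in none.

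In 34 genes no member probe set was above the floor in any line. They included the stromelysins Mmp3 and Mmp10, the collagenases Mmp1a, Mmp1b, Mmp8 and Mmp13, the macrophage elastase Mmp12, the membrane-type Mmp16 and Mmp17, the aggrecanases Adamts4 and Adamts5, and Timp4. Mmp3 gave signals of 134 (vector 1), 110 (vector 2), 60.8 (MTf 4) and 130 (MTf 6). Mmp13 gave 10.8, 55.1, 19.6 and 4.5 in the same order. Adam genes of the male germ line and epididymis, such as Adam2, Adam3, Adam5, Adam7 and Adam18, were also in this group. Such signals do not show that a transcript is absent.

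Genes near the floor gave mixed readings. Mmp9, the other gelatinase, was at 203 (vector 1), 232 (vector 2), 166 (MTf 4) and 203 (MTf 6) by its brighter probe set, and was above the floor in vector 2 alone. Timp3, the matrix-bound inhibitor, was above the floor in MTf 6 alone, at 327, and stood at 181 in vector 1, 215 in vector 2 and 131 in MTf 4. Its other 3 probe sets were below the floor everywhere. Adam11, Adam33 and Adamts12 were above it in 3 lines.

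Some undetected members were neighbours. In the RefSeq gene table, Mmp13, Mmp12, Mmp1b, Mmp3, Mmp1a, Mmp10, Mmp8, Mmp27, Mmp20 and Mmp7 are neighbours with no other protein-coding gene between them. Of the 9 with a probe set here, 8 were below the floor in every line, and Mmp7, matrilysin, was above it only in vector 2, at 242. Adam18, Adam3, Adam5, Adam32 and Adam9 form another such row. Adam9 was at 4905, 5158, 4952 and 4828 in vector 1, vector 2, MTf 4 and MTf 6, while the other 4 were below the floor in every line.

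The promoter windows of detected and undetected members differed in base composition. The RefSeq table held 42 windows for 37 of the 65 genes. Of the 13 windows of genes above the floor in all lines, 9 (69.2%) held the GC box GGGCGG and 0 the TATA motif TATAAA. Of the 18 windows of genes below the floor in every line, 3 (16.7%) held the GC box and 10 (55.6%) the TATA motif. Over all 32851 windows of the table the shares were 35.7% and 13.6%. The AP-1 motif TGAGTCA was in 1 of the 13 and in 6 of the 18 windows, against 5.20% of all windows. All 6 were windows of neighbouring Mmp genes: Mmp1a, Mmp1b, Mmp3, Mmp10, Mmp12 and Mmp13. Outside that row of neighbours, only Adam6a and Adam6b of the undetected genes held the TATA motif. A probe set that names both of these genes, and so was not a member, was above the floor in vector 2 alone, at 308. The median number of CpG dinucleotides per window was 19.0 in the first set and 1.00 in the second, and 7 over the table. Outside the Mmp row the second set was mixed. Adam23, Adamts18, Adamts20 and Adamts3 had 31, 22, 41 and 41, while Adam25, Adam34, Adam6a, Adam6b and Timp4 had between 0 and 2. The 10 genes of the first set and 17 of the second are few, several are neighbours of common origin, and some genes have more than 1 window, so no test was made.

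**Figure D2:**
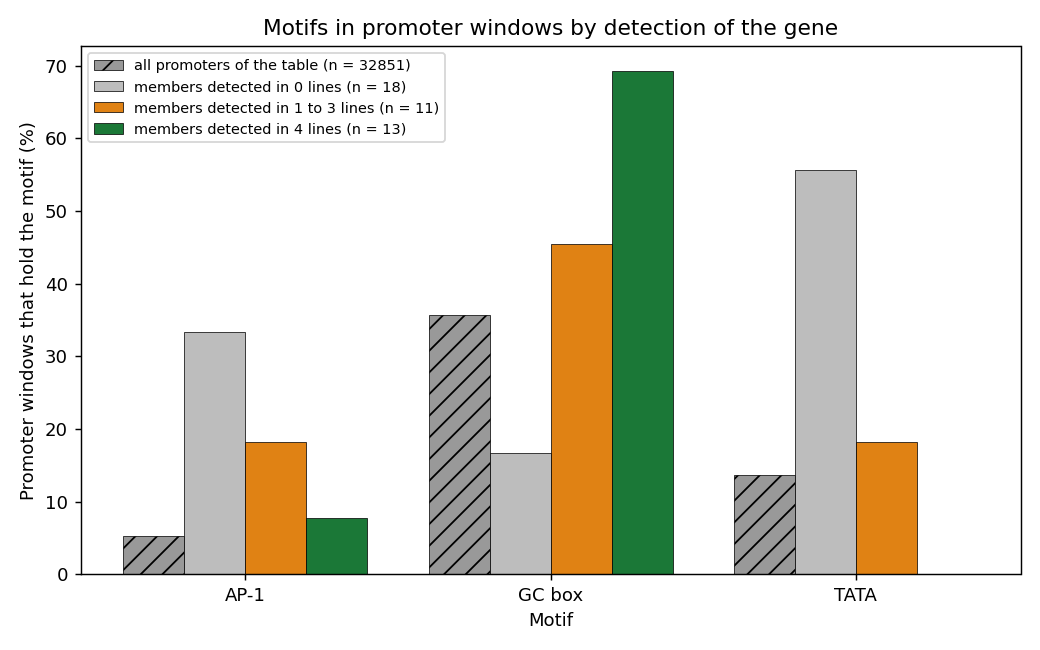
Bars give the percent of promoter windows that hold each motif on either strand, for all 32851 windows of the table and for member windows split by how many lines had the gene above the floor. The GC box was in 69.2% of the windows of genes above the floor in 4 lines and in 16.7% of those in 0 lines, and the TATA motif in 0 of 13 and 55.6%.

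None of the members differed past the threshold between the clones and the vector lines. Signals were compared as log2(signal + 32), so folds are on that scale and understate the changes of low signals. A mean signal of at least 205.6, the median over the array, was needed for a test. The test was limma, with Benjamini-Hochberg adjustment over all 22519 of them and a threshold of 0.05. Of the 116 members 39 passed this filter, for 23 genes. The last members left out were Mmp9 (mean signal 201) and Adam1a (199), and the first kept were Timp3 (214) and Adamts1 (226).

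By limma's adjusted p, 0 of the 39 were called, against 0.00444% of all tested probe sets (1 of 22519), and the smallest adjusted p of a member was 1.00. At an unadjusted p under 0.05 there was 1 member, Adam22, against 1.81% of all tested probe sets. Of the 39, 16 were higher in the clones and 23 lower, where 48.7% and 51.3% of all tested probe sets were. Their median log2 difference was -0.05, beside -0.01 over all tested probe sets. With 1 probe set per gene it was -0.08 over 23 genes, beside -0.005 over all 10706 genes. Both medians of the members changed sign without vector 2 (0.09 over probe sets and 0.04 over genes) and without MTf 6 (0.16 and 0.09). A two-sided exact permutation test of 2 arrays against 2 cannot give a p below 0.333.

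The clones lay wholly above or below the vector lines in 8 of the 39, against 25.8% of all tested probe sets. Both clones were higher for Adam10, Adam22, Adamts1, Mmp2 and Mmp11 by 1 probe set each, where the background was 12.1%. Both were lower for Adam1b, Adam4 and Adam33, where it was 13.6%. These counts are near the background. They include Adamts1 and Adam1b, each of which was below the floor in 1 whole group.

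Adam22, a binding partner of the secreted protein Lgi1 without protease activity, was at 2883 (vector 1), 3343 (vector 2), 4804 (MTf 4) and 4537 (MTf 6) by its brighter probe set. Both clones were thus above both vector lines, by 1.50-fold in the mean. The log2 difference was 0.58 (SE 0.19, 95% interval 0.14 to 1.03; limma, adjusted p = 1.00). The dimmer probe set was at 250, 387, 343 and 694 in the same order, with MTf 4 between the vector lines and vector 1 below the floor. Its log2 difference was 0.60 (SE 0.39).

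Mmp11, stromelysin 3, was at 1189 (vector 1), 970 (vector 2), 2005 (MTf 4) and 1201 (MTf 6). MTf 4 stood alone, and MTf 6 exceeded vector 1 by little. The log2 difference was 0.52 (SE 0.28, 95% interval -0.14 to 1.18). Adamts1, which cuts versican and aggrecan, was at 189, 193, 250 and 272 in the same order. It was below the floor in both vector lines and passed the filter only through the clones. With the vector lines at their floors the clones were 1.01-fold higher in the mean of the log2 values only. The floor of vector 1, 292.5, was above both clones, so the groups would then overlap.

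Adam33, an Adam protease of mesenchymal cells, was at 383 (vector 1), 395 (vector 2), 297 (MTf 4) and 158 (MTf 6), and MTf 6 was below the floor. The log2 difference was -0.75 (SE 0.37, 95% interval -1.61 to 0.11; limma, adjusted p = 1.00), and it was -0.35 without MTf 6. The other probe set of the gene was below the floor in every line. Adam1b, a sperm protein gene, was at 314, 276, 208 and 172. Both clones were below the floor, and the filter was passed only through the vector lines. With the clones at their floors the vector lines were at least 1.29-fold higher. Adam4 was at 472, 560, 462 and 428, with a difference of -0.20 (SE 0.25).

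**Figure D3:**
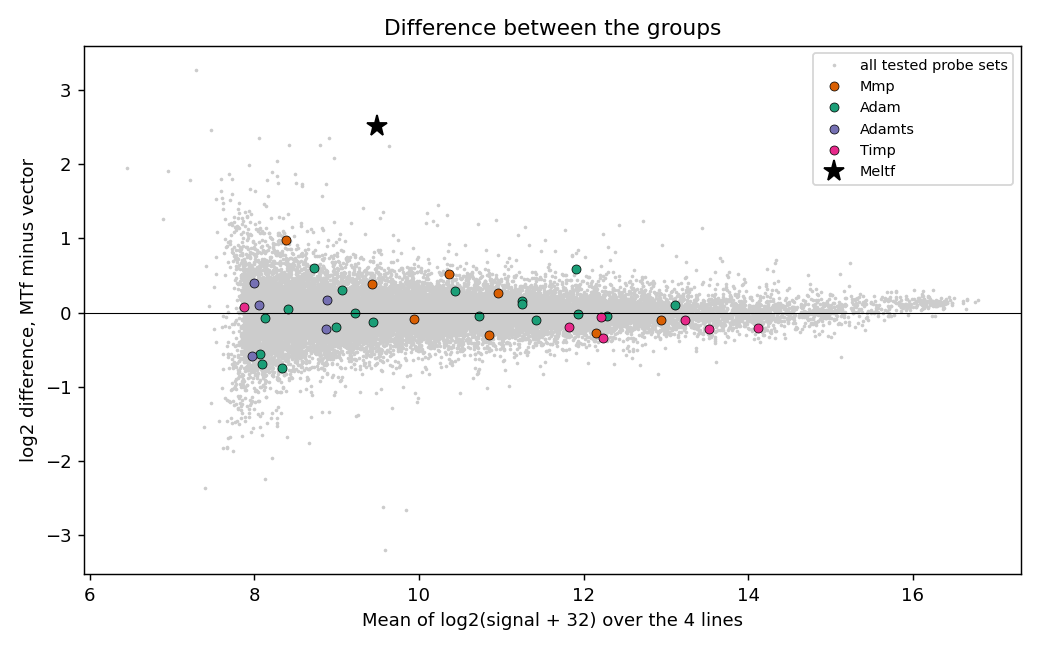
Each point is a probe set, with the mean of log2(signal + 32) over the 4 lines on the horizontal axis and the log2 difference, MTf minus vector, on the vertical axis. Grey points are all 22519 tested probe sets, coloured points the 39 members by family, and the star is Meltf, at 2.52; member differences lay between -0.75 and 0.98.

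Single lines differed in ways that did not follow the groups. Of the 39 tested members 11 differed at least 2-fold between their highest and lowest line, against 12.3% of all tested probe sets. In 7 of the 39 (6.98% of all tested probe sets) the span was this wide and the lowest line was below its floor. Of the remaining 4 members 3 were probe sets of Timp2. With signals below the floor set to it, 6 of the 39 were at least 2-fold apart, against 7.19% of all tested probe sets. The median ratio of the highest to the lowest line was 1.68 over the 39 and 1.42 over all tested probe sets. Since each line was hybridised once, these differences have no replicate check. They came mostly with MTf 6: 6 members were at least 2-fold apart between vector 2 and MTf 6 (4.59% of all tested probe sets), 6 between MTf 4 and MTf 6 (5.26%) and 5 between vector 1 and MTf 6 (2.81%). Only 1 was between vector 1 and vector 2 (3.76%), 1 between vector 1 and MTf 4 (4.56%) and 1 between vector 2 and MTf 4 (2.98%). Apart from the Timp2 probe sets, each member 2-fold apart from MTf 6 had MTf 6 or the other line below its floor. This held for all 5 between vector 1 and MTf 6, and in 2 of these MTf 6 was the higher line. Without MTf 6 the count of members at least 2-fold apart between any lines was 2 in place of 11. The share was then 7.82% of all tested probe sets. It was 9 without vector 1, 9 without vector 2 and 8 without MTf 4, against 8.85%, 8.61% and 7.66%.

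Vector 2 and MTf 4 were the 2 highest lines for 24 of the 39, against 27.1% of all tested probe sets. Vector 1 and MTf 6 were the highest for 2 of the 39, against 21.3%. The other pairs were the highest for 3 (vector 1 and vector 2, 13.6%), 2 (vector 1 and MTf 4, 14.1%), 3 (vector 2 and MTf 6, 11.8%) and 5 (MTf 4 and MTf 6, 12.1%). The 24 probe sets stand for 12 genes, among them Timp2 with 5 and Mmp14 with 3, and the counts describe these 4 arrays.

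**Figure D4:**
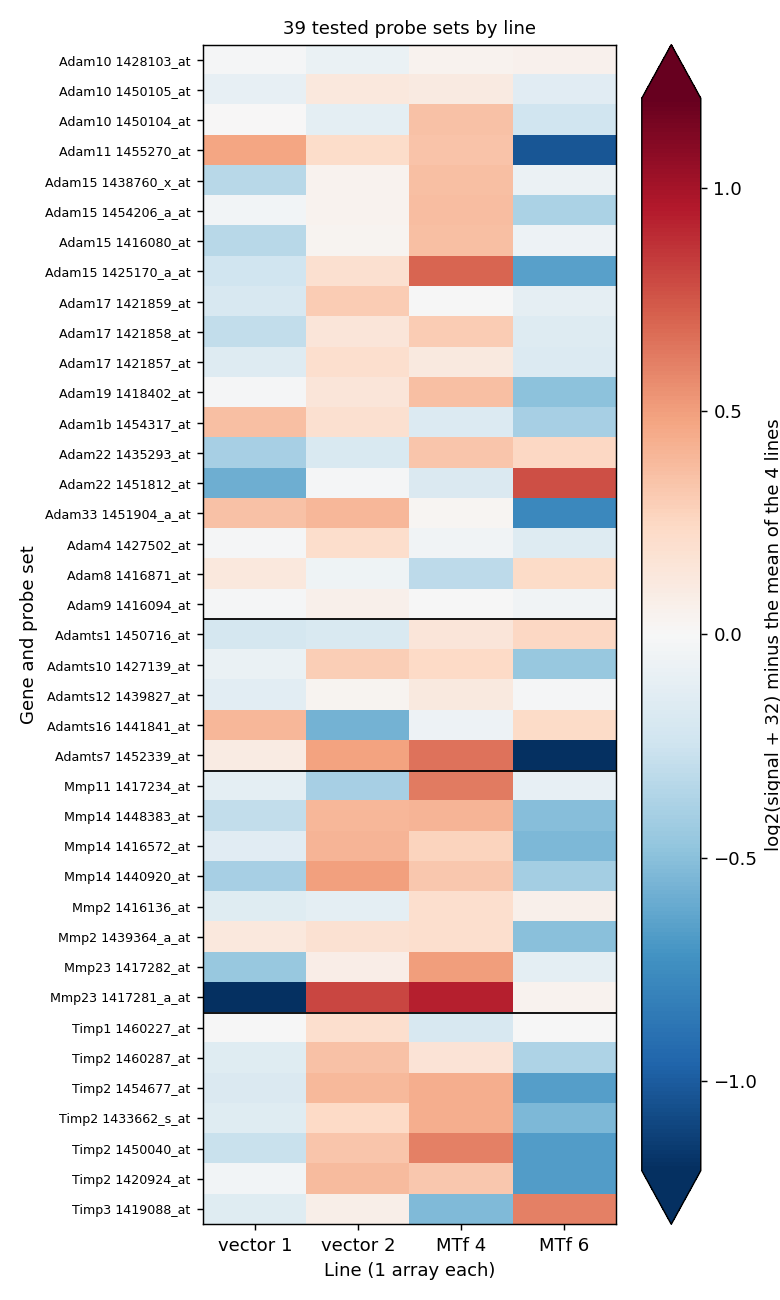
The colour of each cell is log2(signal + 32) minus its mean over the 4 lines, for the 39 tested probe sets (rows, by family) in each line (columns, 1 array each). Vector 2 and MTf 4 were the highest lines in 24 rows; the colour scale is capped at 1.2 in both directions.

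Timp2, the inhibitor that also bridges Mmp14 and the Mmp2 precursor, had 5 probe sets far above the floor. By the brightest it was at 16094 (vector 1), 22795 (vector 2), 19962 (MTf 4) and 13784 (MTf 6). By the next it was at 10444, 15462, 15937 and 7454 in the same order, a 2.13-fold span. MTf 6 was the lowest and vector 1 the next lowest line by every one of the 5. MTf 4 exceeded MTf 6 by 1.45-fold to 2.43-fold, and vector 2 exceeded vector 1 by 1.31-fold to 1.51-fold. The group differences of the 5 lay between -0.35 and -0.07 (limma, adjusted p = 1.00 for each). Without MTf 6 all 5 were positive, between 0.06 and 0.58, and without vector 2 they lay between -0.15 and 0.23, so their direction is not settled. In the fit of all 4 arrays each of their 95% intervals included 0, and for the brightest probe set, with a difference of -0.21, it ran from -0.78 to 0.37. A sixth probe set was below the floor in every line.

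Mmp14 showed the same high and low lines. By its brightest probe set it was at 6367 (vector 1), 10260 (vector 2), 10359 (MTf 4) and 5469 (MTf 6). By the next it was at 4098, 6005, 5435 and 3100, and by the dimmest at 711, 1342, 1192 and 704. All 3 put vector 2 and MTf 4 above vector 1 and MTf 6, so the groups overlapped. MTf 4 exceeded MTf 6 by 1.66-fold to 1.89-fold, and the log2 differences between the groups were -0.10 (SE 0.34), -0.27 (SE 0.31) and -0.09 (SE 0.36). They became 0.36, 0.13 and 0.28 without MTf 6, and 0.24, 0.003 and 0.35 without vector 2.

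Mmp2, the gelatinase that Mmp14 activates, did not follow them by both of its probe sets. By 1 it was at 1777 (vector 1), 1811 (vector 2), 2267 (MTf 4) and 2053 (MTf 6), a difference of 0.26 (SE 0.19) with both clones higher. By the other it was at 1978, 2068, 2086 and 1269, with MTf 6 low, and the difference was -0.31 (SE 0.27). The probe sets thus disagreed in sign, but without MTf 6 both differences were positive (0.33 and 0.04). Timp1, a secreted inhibitor, was at 3576, 4147, 3139 and 3596, a difference of -0.20 (SE 0.20).

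The replicative helicase genes Mcm2 to Mcm7, chosen after values had been seen, deviated with the opposite sign in each line. Their median deviation from the mean of the 4 lines on the log2 scale was 0.54 (vector 1), -0.41 (vector 2), -0.50 (MTf 4) and 0.31 (MTf 6). For the 8 probe sets of Timp2 and Mmp14 it was -0.16, 0.38, 0.37 and -0.54. For the other 31 tested members it was -0.10, 0.08, 0.20 and -0.11. The part of proliferation in these line differences was not tested. Fn1, fibronectin, which both Mmp14 and Mmp2 can cut, was at 24584, 35814, 56426 and 31986, and vector 2 and MTf 4 were its highest lines too. Col1a1, of type I collagen, was at 695, 2400, 2487 and 1441 by its brighter probe set, with the same highest lines. By its dimmer probe set it was at 445, 1271, 925 and 1043, with vector 2 and MTf 6 the highest. Vector 2 and MTf 4 were the highest lines for 5 of the 10 tested matrix substrates, against 27.1% of all tested probe sets. That share is over probe sets, whereas the substrates were counted by gene. The others were Col1a2, Col5a1 and Lamc1 (MTf 4 and MTf 6), Col3a1 (vector 1 and MTf 4) and Eln (vector 2 and MTf 6).

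**Figure D5:**
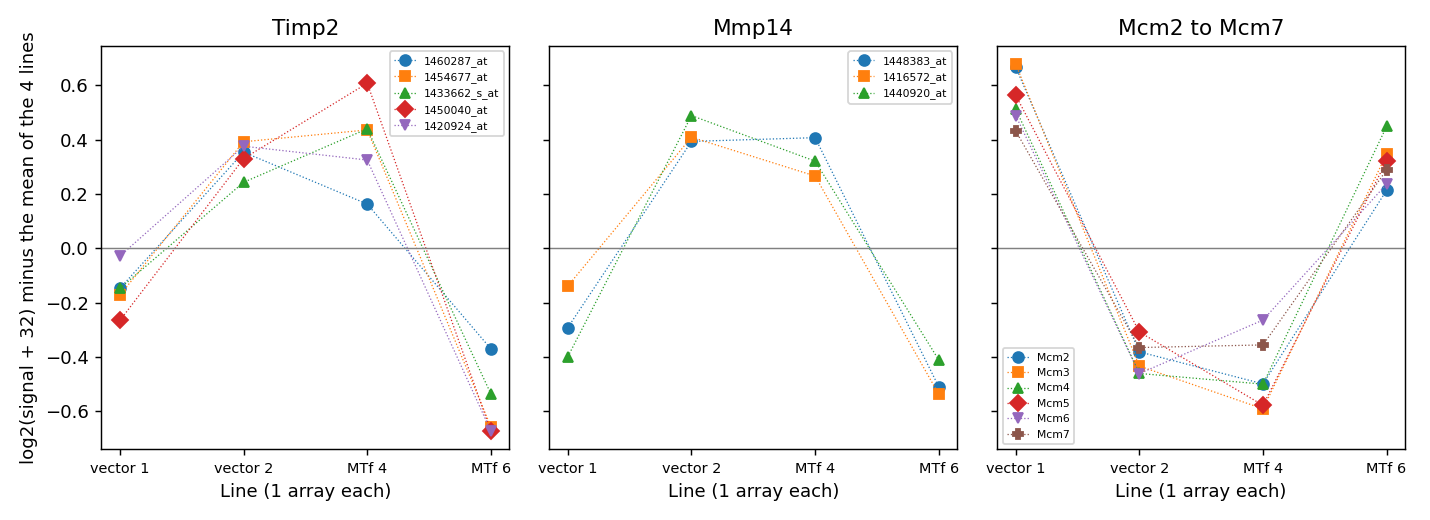
Points give log2(signal + 32) minus the mean of the 4 lines for the 5 bright probe sets of Timp2, the 3 of Mmp14 and, for Mcm2 to Mcm7, the probe set with the highest mean; dotted lines only join points of 1 probe set. Timp2 and Mmp14 were above 0 in vector 2 and MTf 4 and below 0 in vector 1 and MTf 6, and the Mcm genes the reverse.

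Mmp23, a membrane-anchored matrixin without the usual hemopexin domain, was lowest in vector 1. By its dimmer probe set it was at 65.0 (vector 1), 550 (vector 2), 604 (MTf 4) and 311 (MTf 6), and vector 1 alone was below the floor. With vector 1 at its floor the highest line, MTf 4, was at least 1.96-fold higher. By its brighter probe set it was at 470, 695, 942 and 603, and vector 1 was again the lowest, by 1.45-fold against vector 2. The group differences were 0.98 (SE 0.77) and 0.38 (SE 0.31), and without vector 1 that of the dimmer probe set became -0.32. Adamts7, which cuts the cartilage matrix protein Comp, was at 237, 319, 361 and 74.3, with vector 1 and MTf 6 below the floor. Adam11, another inactive Adam protein, was at 346, 285, 314 and 101, below the floor in MTf 6 alone.

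The sheddases spanned between 1.10-fold and 1.52-fold over the lines by their tested probe sets. Adam10, which sheds Notch receptors and cadherins, was at 8736 (vector 1), 8351 (vector 2), 9112 (MTf 4) and 9158 (MTf 6) by its brightest probe set. Its log2 difference was 0.10 (95% interval -0.30 to 0.49), and its 2 other tested probe sets gave -0.03 and 0.11. Adam17, which sheds tumor necrosis factor and ligands of the epidermal growth factor receptor, was at 2359, 3351, 2704 and 2516 by its brightest probe set, with differences of -0.11, 0.15 and -0.05 by the 3. Adam9 had the smallest span of the tested members, 1.07-fold, and a difference of -0.04 (95% interval -0.46 to 0.38). Adam15 was highest in MTf 4 by all 4 probe sets, and its brightest was at 1076, 1403, 1752 and 1290. Its dimmest was at 256, 357, 520 and 185, below the floor in vector 1 and MTf 6, and MTf 4 was at least 2.29-fold above MTf 6 at its floor.

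Genes that act with the family were read from lists, each gene by its tested probe set with the highest mean, and 0 members of any list were called by limma in either direction. The lists had 9 tested activators and endogenous inhibitors (6 higher, 3 lower, median log2 difference 0.11), 8 partners of Adam10 and Adam17 (5 and 3, 0.06) and 18 of their shed substrates (8 and 10, -0.05). There were also 5 Adamts relatives and procollagen proteinases (2 and 3, -0.08), 10 matrix substrates (6 and 4, 0.12) and 10 AP-1 and Ets factors (5 and 5, -0.01). Of the 60 listed genes 32 were higher and 28 lower, where 49% and 51% of all 10706 tested genes were. At an unadjusted p under 0.05 there were 2, Thbs1 and Fosl1, against 1.76% of all tested genes. Thbs1, thrombospondin 1, which binds Mmp2, was at 241 (vector 1), 458 (vector 2), 749 (MTf 4) and 709 (MTf 6), below the floor in vector 1. Fosl1, an AP-1 factor, was at 3234, 2011, 976 and 1597, lower in both clones with a log2 difference of -1.01 (SE 0.32; limma, adjusted p = 1.00). Jun, its partner in AP-1, was at 5076, 5007, 6431 and 6878, with a difference of 0.40 (SE 0.18). Bmp1, a procollagen proteinase, was at 284, 936, 1281 and 711, a difference of 0.84 (SE 0.52), and below the floor in vector 1. Among the partners of Adam10 and Adam17, Frmd8 had the smallest p. It was at 2233, 2445, 2132 and 1607, lower in both clones with a difference of -0.33 (SE 0.22). Rhbdf2, which carries Adam17 to the cell surface, went the other way in the mean, by 0.43 (SE 0.52). It was at 242, 352, 731 and 217, below the floor in vector 1. Col5a1, of a fibrillar collagen, was at 4746, 6829, 8198 and 7392, higher in both clones with a difference of 0.45 (SE 0.22).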

How the data were processed

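The deposited values are intensity values, 1 per probe set and array, which the authors made in GCOS 1.3 (source: the submitters' processing notes). The sources used here give neither its settings nor detection calls. The arrays shared their trimmed mean and were used as deposited.

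Of 45101 probe sets 64 were controls. The platform annotation names 1 gene for 34945 of the others, several for 932 and none for 9160. The 5 probe sets that name a family gene and another gene were left out. All 65 member genes were found in the RefSeq gene table of GRCm38.p6, used for names and neighbours. Promoter sequences are RefSeq's.

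Signals were taken as log2(signal + 32) and fitted in limma 3.58.1 (R 4.3.3; lmFit, eBayes with a trend), MTf minus vector, over all tested probe sets. Intervals are 95% intervals of that fit. The number of arrays limits precision. The fit of MTf minus vector was tested on simulated data in 10 runs of 22519 probe sets, 200 of them altered. It called 5.52% of 2-fold, 65.7% of 4-fold and 82.6% of 8-fold changes, and 5.37% of its calls were false. The simulated noise was independent between probe sets, with variances drawn from the fit itself. Differences of a line shared by many probe sets were left out, so these rates hold for that setting only. Alternatives covered the offset, the filter, normalization, the variance trend, the floor and leaving out each array.

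Members and lists were chosen with earlier results of these data known. Named were called members, the 8 probe sets with the largest difference among those whose groups lay apart, the 12 with the widest span between lines, and Mmp2, Mmp3, Mmp9, Mmp13, Mmp14, Timp1, Timp2, Timp3, Adam10 and Adam17. Up to 3 genes per list and Meltf were added. Adam9, Adam15, Mcm2 to Mcm7, Fn1, Col1a1 and the genes named for detection or neighbourhood were chosen after their values were seen.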

Additional observations from a re-analysis of the deposited data

How the results depend on the processing

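By limma, 0 members were called in the fit reported and under each alternative: offsets of 16 and 64, no filter, a filter at the 75th percentile or on the mean log2 value (the latter chosen after seeing the data), quantile normalization, no variance trend, and each array left out. Over all probe sets the count of 1 became 0 without the filter, with the filter at the 75th percentile and without the trend, and lay between 1 and 21 with 1 array left out (2 without vector 1, 21 without MTf 4 and 9 without MTf 6). Meltf differed by 2.52 on the log2 scale (limma, adjusted p = 0.0911). The difference lay between 2.36 and 2.67 with 1 array left out, and passed without MTf 4 or without MTf 6. The median of the members lay between -0.21 and 0.16, and that over genes between -0.08 and 0.09, with 1 array left out, and the latter was 0.03 with the filter at the 75th percentile, so neither has a settled sign. The count of members at least 2-fold apart between lines was 54 of 116 without the filter. Of these 116, however, 67 were below the floor in every line, where ratios of signals are mostly noise. With the filter at the 75th percentile the count was 4 of 20. Neither of these 2 counts is set against a share of all probe sets here. It lay between 2 and 9 with 1 array left out, the lowest without MTf 6, and was 6 with signals below the floor set to it (both choices made after seeing the data). The count of probe sets above the floor in all 4 lines was 27 to 29 under the other floors. Of 261 alternative values of the 29 named tested probe sets, 17 changed sign and moved by more than their standard error, each with 1 array left out, among them all tested probe sets of Timp2 and Mmp14 without MTf 6, and none of them was called. No paired analysis was possible because the vector lines and the clones share no replicate numbers.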
